A study of Rattus norvegicus with 20 samples.

Results

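Small interfering RNA (siRNA) against *Piezo2* was compared with a non-targeting siRNA in INS-1 832/13 cells, a line of insulin-secreting β cells that came from a rat insulinoma and holds a human proinsulin gene besides its own. The comparison used the 4 libraries of cells given the *Piezo2* siRNA (si-P2) and the 4 of cells given the non-targeting siRNA (si-Ctrl), which are 8 of the 20 libraries of the study. The other 12 were 4 of untransfected cells, 4 with siRNA against *Piezo1* (si-P1) and 4 with both siRNAs (si-P1+2). Pools of oligonucleotides from one supplier's line served as siRNAs, delivered with a lipid reagent at 25 nM, given again after 48 h and left for another 48 h. Cells of all 5 groups grew in medium with 11.1 mM glucose. For si-P1+2 it is not stated whether 25 nM was the dose of each pool or of both together. It is also not stated that the 4 libraries of a group are separate cultures, and the p-values therefore speak only of the spread between libraries, possibly a technical one.

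PIEZO2 is a cation channel of the plasma membrane that opens when the membrane is stretched or indented. It is best known from sensory neurons and Merkel cells, where it serves touch and the sense of limb position, and its relative PIEZO1 is the form found in many non-sensory cells. An siRNA guides the RNA interference machinery to mRNAs that match it, and its seed region can also lower mRNAs that match it only in part. Only 1 *Piezo2* pool was used, so a change in si-P2 is described here as a change with that pool.

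Reads behind the values numbered 25314021 to 51918772 per si-P2 library and 21328975 to 43921956 per si-Ctrl library. The values are normalized counts, and 15802 of 23487 genes were above 0 in at least 10 of the 20 libraries and were tested. Library si-Ctrl replicate 3 stood apart. Its normalized counts had a median of 442 over the genes tested, against 517 to 527 in the other 19 libraries, and it was the si-Ctrl library farthest from the si-P2 mean for 61.2% of all genes tested. The count of changed genes, list medians and many fold changes are therefore given with and without it. The β-cell markers were present in every library, with a sum over 12 markers of 608696 to 941155 normalized counts in si-Ctrl and 675813 to 755786 in si-P2, and none of them passed the test. *Chga* was the largest part of these sums (409625 to 656599 in si-Ctrl and 443740 to 537812 in si-P2), so they say little of the other markers. The sums for delta cells and for PP and epsilon cells reached at most 2.95. The single markers *Prss1* of acinar cells, *Irx2* of alpha cells and *Sox10* of Schwann cells were at 0, but other markers were not. Alpha markers summed to 1477 to 3337 in si-Ctrl and 1465 to 3097 in si-P2, with *Gcg* at 1476 to 3336 and 1461 to 3095. Duct markers summed to 1782 to 3341 and 1986 to 2513, and Schwann and neuronal markers to 7866 to 8881 and 7426 to 8994. None of these markers passed. Acinar markers summed to 32.4 to 54.6 in si-Ctrl and 14.2 to 23.8 in si-P2, with none of them passing, and their part in the results was not tested. In bulk RNA, fewer cells of a type and less RNA per cell cannot be told apart.

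The target itself was close to the floor. *Piezo2* (ENSRNOG00000038784) had 6, 13, 6 and 4 reads in the 4 si-P2 libraries and 6, 15, 8 and 15 in the 4 si-Ctrl libraries. After normalization these were 3.71, 12.7, 5.90 and 5.02 and 8.91, 14.7, 10.2 and 10.9 normalized counts. The si-P2 replicate 2 value lay inside the si-Ctrl range and the other 3 lay below it. On the scale of log2(value + 1), used for all fold changes here and which understates changes of low genes, the difference was −0.74 (standard error 0.36, 95% confidence interval −1.49 to 0.02, adjusted p = 0.255, limma). Without si-Ctrl replicate 3 it was −0.77 (adjusted p = 0.361). Neither value passed the threshold of 0.05, so no fall of the target was detected, and the interval holds both no change and a fall of 1 log2 unit or more. *Piezo1* was at 300.0 to 386 in si-P2 and 294 to 333 in si-Ctrl, a difference of 0.15 (adjusted p = 0.448), so the ranges overlapped.

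Of the 15802 genes, 328 (2.08%) differed between si-P2 and si-Ctrl at an adjusted p below 0.05. In si-P2, 139 of them (0.88%) were higher and 189 (1.2%) lower. The differences were small, with a median absolute log2 fold change of 0.43 among the 328 against 0.18 over all genes tested, and 122 exceeded 0.5 (57 higher, 65 lower). The values of the 4 si-P2 and the 4 si-Ctrl libraries did not overlap for 317 of the 328, and over all genes tested they did not overlap for 8.61%. Without si-Ctrl replicate 3, 449 genes passed (2.84%), of which 193 (1.22%) were higher and 256 (1.62%) lower. Of the 328, 281 passed in both fits with the same direction, 47 passed only with that library and 168 further genes only without it. That library was the si-Ctrl value farthest from the si-P2 mean for 68.6% of the 328. The count depended on the fit across groups. When the fit held no group other than si-P2 and si-Ctrl, 5 genes passed, *Hscb*, *Glud1*, *Nefm*, *Ppm1f* and *Muc13*, and 170 did when si-Ctrl replicate 3 was left out as well. DESeq2 on the recovered reads called 820 genes. With 1 library left out, the limma count ranged from 100 without si-P2 replicate 3 to 765 without si-Ctrl replicate 1, and was 180, 158 and 200 without si-P2 replicates 1, 2 and 4, and 209 without si-Ctrl replicate 4.

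**Figure D1:**
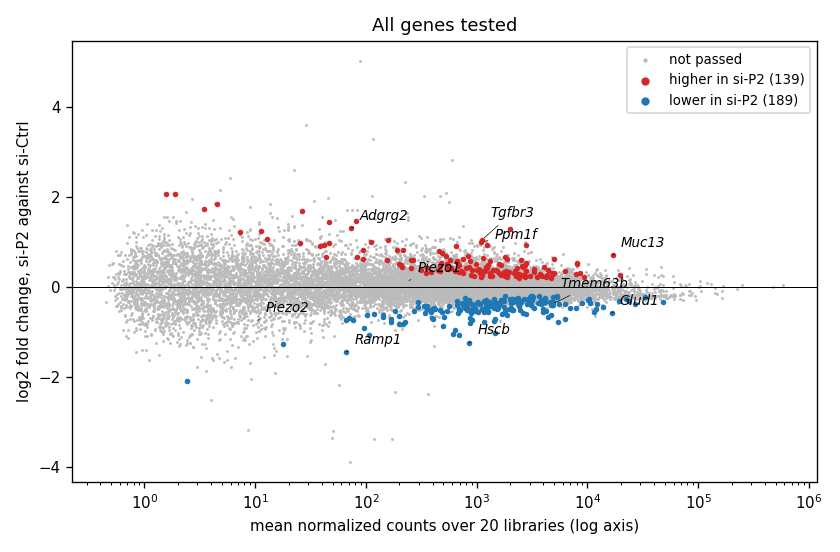
Each point is 1 of the 15802 genes tested, with its mean normalized count over the 20 libraries on a log axis against its log2 fold change, si-P2 against si-Ctrl; colours mark the 139 genes that passed the test as higher and the 189 that passed as lower. Most coloured points lie within 1 log2 unit of 0, and *Piezo2* sits among the low genes that did not pass.

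The changes with the smallest adjusted p-values were falls of 2 genes for mitochondrial proteins. *Hscb* (ENSRNOG00000037508) encodes the co-chaperone that hands newly built iron-sulfur clusters to their recipient proteins. It was at 452, 490.0, 445 and 535 normalized counts in si-P2 and 929, 995, 1417 and 1244 in si-Ctrl. The highest si-P2 value was well below the lowest si-Ctrl value, and the other groups were also higher, at 937 to 1087 in untransfected cells, 813 to 1164 in si-P1 and 596 to 757 in si-P1+2. The log2 fold change was −1.24 (standard error 0.13, adjusted p = 5.35e-05, limma) and −1.13 without si-Ctrl replicate 3. *Glud1* (ENSRNOG00000057367) encodes glutamate dehydrogenase, a matrix enzyme through which glutamine and leucine can drive insulin secretion in β cells. Its normalized counts were 13056, 13537, 12823 and 12599.8 in si-P2 and 18727, 20101, 18909.6 and 19584 in si-Ctrl. The 4 si-P2 values were tight and lay below each of the other 16 libraries of the study, the lowest of which was an si-P1+2 library. The log2 fold change was −0.57 (standard error 0.05, adjusted p = 2.26e-05, limma) and −0.58 without si-Ctrl replicate 3. Of the genes named here, *Hscb* and *Glud1* were the ones that passed the test in each fit that left out 1 of the 8 libraries and under each other setting tried.

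Since *Hscb* and *Glud1* fell under each setting, their promoters are shown as the 250 bases before the start of the gene in RefSeq (assembly GRCr8, plus strand, chr12:51481093-51481342 for *Hscb* and chr16:9646319-9646568 for *Glud1*). The files of the study use the build Rnor_6.0, so these coordinates do not apply to them. Capitals mark the CCAAT box (CCAAT or its reverse complement) in *Hscb* and the GC box (GGGCGG or its reverse complement) in *Glud1*, both searched on both strands.
Hscb: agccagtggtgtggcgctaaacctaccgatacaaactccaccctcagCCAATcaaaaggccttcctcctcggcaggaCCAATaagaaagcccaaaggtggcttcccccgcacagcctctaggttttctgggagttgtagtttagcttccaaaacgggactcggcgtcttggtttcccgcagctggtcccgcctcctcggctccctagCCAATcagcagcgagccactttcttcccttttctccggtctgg
Glud1: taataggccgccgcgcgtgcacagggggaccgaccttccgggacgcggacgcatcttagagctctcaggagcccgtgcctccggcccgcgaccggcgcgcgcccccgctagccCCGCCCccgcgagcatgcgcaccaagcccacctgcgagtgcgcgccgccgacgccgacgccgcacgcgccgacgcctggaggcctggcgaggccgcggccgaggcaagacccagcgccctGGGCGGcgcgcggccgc
The *Hscb* promoter held 3 CCAAT boxes, which begin 203, 173 and 43 bases before the start, and a CCAAT box stood in 34% of the 33469 rat promoters of this length. The *Glud1* promoter held 2 GC boxes, 137 and 17 bases before the start, and 30.5% of promoters held 1 or more. These are matches of letters and say nothing of which factors bind there.

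Around these, few genes of mitochondrial energy metabolism passed. Counts of called list members, here and below, stand beside 2.08% of all genes tested. *Hscb* was the single member called among 26 genes of iron-sulfur cluster assembly, whose median log2 fold change was −0.17 with si-Ctrl replicate 3 and −0.03 without it, beside 0.012 and 0.0011 over all genes tested. Without that library *Ciao2a*, of the cytosolic iron-sulfur assembly machinery, passed as higher as well (0.22, adjusted p = 0.0409, limma). Of 33 genes of oxidative phosphorylation, *Ndufs1*, the subunit of complex I that carries several iron-sulfur clusters, passed with 2606, 2611, 2559.6 and 2484 normalized counts in si-P2 and 3100.1, 3147, 2829.5 and 3186 in si-Ctrl (−0.26, adjusted p = 0.0203). The groups did not overlap, but the call was lost without si-P2 replicate 3 or 4 or si-Ctrl replicate 4 (adjusted p up to 0.0711). The median of that list was −0.19 with si-Ctrl replicate 3, with 31 of 33 members below 0, and −0.07 without it. Of 28 genes of glycolysis and lactate handling *Ldhb*, a subunit of lactate dehydrogenase, was the 1 that passed with all libraries. Without si-Ctrl replicate 3 *Pdha1*, a subunit of pyruvate dehydrogenase, passed too (−0.27, adjusted p = 0.0314, limma). *Ldhb* was at 333, 348, 359.6 and 372 in si-P2 and 572, 621, 957 and 659 in si-Ctrl (−0.96, adjusted p = 0.00209, and −0.80 without si-Ctrl replicate 3), while untransfected cells held 302 to 383. The si-P2 level was thus within the range of cells that had received no siRNA, and against those the difference was 0.093.

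A pair of ion channels other than the PIEZO proteins were lower. *Tmem63b* (ENSRNOG00000019743) encodes a cation channel that opens on membrane stretch and on hypotonic swelling. It was at 3907, 4127, 3932 and 3945 normalized counts in si-P2 and 5049.6, 5356, 5428 and 4913 in si-Ctrl, and no other library of the study was as low, since si-P1+2 held 4453 to 4628. The log2 fold change was −0.38 (standard error 0.05, adjusted p = 0.000230, limma), with and without si-Ctrl replicate 3 about the same (−0.36 without). *Tmem63b* was the 1 gene called among 23 mechanically gated or volume-regulated channels and their relatives. Its paralogues *Tmem63a* and *Tmem63c* stood at −0.03 and −0.02, and the volume-regulated anion channel subunit *Lrrc8a* at −0.01, each with an adjusted p of at least 0.742. *Tmem206* (ENSRNOG00000003915) encodes the proton-activated chloride channel. It was at 9234, 9118, 8572 and 9285 in si-P2 and 11982, 13274, 15268 and 13047 in si-Ctrl (−0.56, standard error 0.06, adjusted p = 0.000136, and −0.50 without si-Ctrl replicate 3). Both channels passed in each fit that left out 1 library. None of 31 genes of β-cell electrical excitability passed in limma. Of these, 6 reached an unadjusted p below 0.05 and DESeq2 called 3, beside 3226 and 820 of all 15802 genes.

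**Figure D2:**
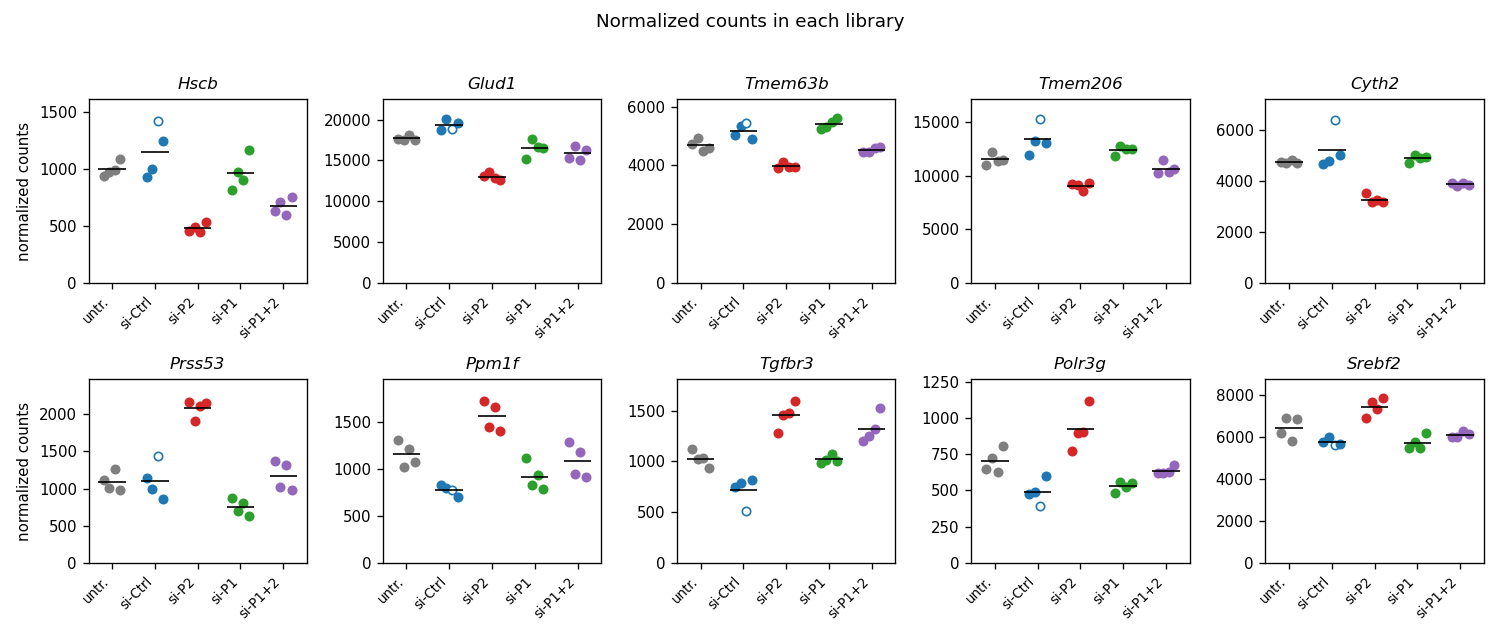
Normalized counts of 10 genes in each of the 20 libraries, by group (untr., untransfected), with 1 panel per gene, a linear axis from 0, and a black line at the group mean; the open circle is si-Ctrl replicate 3. The upper row holds genes whose 4 si-P2 values (red) lie below all other libraries, and in the lower row the 4 si-P2 values lie above all si-Ctrl values.

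*Cyth2* (ENSRNOG00000021051), cytohesin-2, an exchange factor that activates ARF GTPases at the plasma membrane, fell. It was at 3514, 3152, 3239 and 3159 normalized counts in si-P2 and 4666, 4769, 6387 and 5002 in si-Ctrl, with si-Ctrl replicate 3 the highest, and the log2 fold change was −0.66 with that library and −0.56 without it (adjusted p = 0.000130 and 9.35e-07). Also lower were the Golgi membrane protein *Golm1* (859.7 to 995 against 1247 to 1912, −0.71) and *Galnt9*, an enzyme that starts O-linked glycans (3667 to 4494 against 5362 to 9053, −0.78). Without si-Ctrl replicate 3 these fold changes were −0.81 and −0.64. *Sytl4*, granuphilin, which docks insulin granules at the membrane, was higher at 4158, 3455, 4275 and 3261 against 2874, 2266, 1241 and 1881 (0.93, and 0.71 without si-Ctrl replicate 3). It was the 1 call among 41 genes of exocytosis and missed the threshold without si-P2 replicate 3 (adjusted p = 0.0571). *Muc13*, a transmembrane mucin, was at 27830.5, 24683, 25362 and 26718 in si-P2 and 16651, 16406, 15697 and 15044 in si-Ctrl (0.71, adjusted p = 0.00298). The si-P2 and the untransfected ranges of *Muc13* overlapped, the latter at 23269.6 to 28719.

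In the lysosome and autophagy list 3 of 34 genes passed, beside 2.08% of all genes tested. The median log2 fold change of that list was 0.04, and 0.08 without si-Ctrl replicate 3. *Atp6v1a*, the catalytic subunit of the proton pump that acidifies lysosomes and granules, was at 9672, 9410.2, 9477 and 9172 in si-P2 and 7713, 7376, 4569 and 7112 in si-Ctrl. Each si-P2 value was above all other libraries, si-Ctrl replicate 3 was the lowest of all, and the fold change was 0.52 with it and 0.35 without it. *Ulk1*, the kinase that starts autophagy, was higher by 0.24 and *Gabarapl1*, of the ATG8 family of autophagosome proteins, lower (−0.34). Without si-P2 replicate 3 these 3 missed the threshold (adjusted p = 0.0557 for *Atp6v1a* and 0.0541 for *Gabarapl1*), and *Ulk1* also did without si-P2 replicate 1, 2 or 4 or si-Ctrl replicate 4 (adjusted p up to 0.0901). *Srebf2*, the transcription factor that drives cholesterol synthesis, was higher at 6926, 7652, 7356 and 7843 against 5755, 5994, 5641 and 5675 (0.37, adjusted p = 0.00313) and above all 16 other libraries. None of the other 30 genes of sterol and fatty acid synthesis passed, and the median of the list was 0.10, or 0.02 without si-Ctrl replicate 3. Without that library *Acly*, which makes cytosolic acetyl-CoA from citrate, passed as lower (−0.36, adjusted p = 0.0159, limma), and in the lysosome and autophagy list the sialidase *Neu1* passed as higher (0.29, adjusted p = 0.0187).

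Several genes of signalling were higher in si-P2. *Ppm1f* (ENSRNOG00000037909), a phosphatase that acts on calcium/calmodulin-dependent kinase and on p21-activated kinase, was at 1726, 1447, 1659.5 and 1398 normalized counts in si-P2 and 828, 792, 779 and 702 in si-Ctrl. The groups were far apart, si-Ctrl replicate 3 lay within its group, and the log2 fold change was 1.00 (standard error 0.12, adjusted p = 0.000230, limma) with it and 1.00 without. *Tgfbr3* (ENSRNOG00000002093), betaglycan, a co-receptor for ligands of the TGF-β family, was at 1285, 1457, 1481 and 1593 against 744, 788, 510.1 and 820.3 (1.04, and 0.89 without si-Ctrl replicate 3). It was the 1 call among 28 genes of that pathway with all libraries, and without si-Ctrl replicate 3 the transcriptional inhibitor *Id3* passed too (0.31, adjusted p = 0.0223). The receptor tyrosine phosphatase *Ptpru* was at 2574, 2645, 2911 and 2803 against 1998, 1768, 1837 and 1652 (0.59, adjusted p = 0.000347). *Ppm1f*, *Tgfbr3* and *Ptpru* passed in each fit without 1 library.

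For other signalling genes 1 or a few libraries decided the call. *Uhmk1*, a kinase that phosphorylates splicing factors, was at 2848, 2896, 3046 and 2351 in si-P2 and 1782, 1685, 377 and 1417 in si-Ctrl. The si-Ctrl replicate 3 value was far below the others, the fold change was 1.30 with it and 0.77 without it, and the call was lost without any 1 of the si-P2 libraries (adjusted p up to 0.119). *Pik3r3*, a regulatory subunit of PI3-kinase, was at 135, 155, 156 and 131 against 102, 98.1, 31.7 and 80.4, with fold changes of 1.00 and 0.62. It missed the threshold without any 1 of the si-P2 libraries or si-Ctrl replicate 4 (adjusted p up to 0.151), and 25 other genes of PI3-kinase and insulin signalling did not pass. *Rasa2*, which switches RAS off, was higher (0.82, 0.56 without si-Ctrl replicate 3) and lost its call without si-P2 replicate 3 (adjusted p = 0.0822). Among the genes that fell, *Rnd1*, an unusual small GTPase that loosens actin fibres, was at 919, 1094, 1088 and 1484 against 1918, 1939, 2967 and 2525 (−1.02, adjusted p = 0.00381, and −0.90 without si-Ctrl replicate 3). *Ppp1r14b*, an inhibitor of protein phosphatase 1, was at 5129, 4324, 4487 and 4358 against 6557, 6234, 11215 and 6538, and its fold change of −0.70 was −0.50 without the high si-Ctrl replicate 3. Both of these passed in each fit without 1 library.

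*Polr3g*, a subunit of RNA polymerase III, was at 769, 894, 906 and 1116 in si-P2 and 474, 492, 395 and 600.0 in si-Ctrl (0.91, standard error 0.12, adjusted p = 0.000373, limma, and 0.81 without si-Ctrl replicate 3). *Smn1*, needed to assemble spliceosomal particles, was at 615, 648, 618 and 676 against 869, 1012, 1364 and 1075 (−0.74, −0.62 without si-Ctrl replicate 3) and below all 16 other libraries. Of 37 cell cycle genes 2 passed, beside 2.08% of all genes tested. Cyclin E2 (*Ccne2*) was higher (1882 to 2089 against 883 to 1510.0, 0.63) and cyclin D3 (*Ccnd3*) lower (1484 to 1639.9 against 1764 to 2314, −0.35). Without si-Ctrl replicate 3 these fold changes were 0.45 and −0.29. *Ccnd3* missed the threshold without any 1 of the si-P2 libraries or si-Ctrl replicate 2 (adjusted p up to 0.0683). Of 22 p53 targets and apoptosis genes 2 passed, beside the same 2.08%. The pro-apoptotic *Bid* was lower at 588, 603, 596 and 549.7 against 735, 889, 822 and 839.9 (−0.49, adjusted p = 0.00418). *Phlda3*, which restrains AKT, was at 326 to 380.3 against 401 to 624 and passed narrowly (adjusted p = 0.0498). *Phlda3* did not pass without si-Ctrl replicate 3 (adjusted p = 0.0854) or without any 1 of 6 other libraries, si-Ctrl replicate 1 being the exception (adjusted p up to 0.135).

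Several genes of receptors, ligands and adhesion proteins were lower in si-P2. *Ramp1*, which pairs with the calcitonin receptor-like receptor to bind calcitonin gene-related peptide, was at 37.1, 42.0, 36.4 and 71.5 normalized counts in si-P2 and 81.7, 102, 179 and 157 in si-Ctrl. The groups did not overlap, but si-P2 replicate 4 was close to the lowest si-Ctrl value, and the fold change was −1.44 with si-Ctrl replicate 3 and −1.27 without. *Adm*, adrenomedullin, a peptide ligand of the same receptor family, was at 1285, 1225, 1211 and 984 against 1626, 1637, 1833 and 1383 (−0.46, adjusted p = 0.0474). It did not pass without si-Ctrl replicate 3 (adjusted p = 0.0841) or without any other single library except si-Ctrl replicate 4 (adjusted p up to 0.119). The other 8 tested genes of the calcitonin family and its receptors did not pass. *Cd276*, an immune checkpoint ligand of the B7 family, was at 975, 831, 873 and 766 against 1578, 1395, 1641 and 1314 (−0.78, adjusted p = 0.000230), and N-cadherin (*Cdh2*) at 3745, 3543, 3688 and 3671 against 4903, 4686, 4062 and 4854 (−0.33, adjusted p = 0.00557). Both passed without any 1 library. *Cd40*, of the TNF receptor family, was at 103, 62.5, 87.4 and 82.8 against 143, 145, 261 and 166 (−1.06, −0.86 without si-Ctrl replicate 3) and missed the threshold without si-P2 replicate 2 (adjusted p = 0.0522). *Adgrg2*, an adhesion G protein-coupled receptor, was higher at 98.9, 96.6, 151 and 96.6 against 59.4, 48.1, 29.2 and 42.0, with si-P2 replicate 3 above the rest of its group.

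The calcium-binding genes *S100a4* (668 to 887 against 908 to 2278) and *Anxa8* (41.4 to 92.7 against 100.0 to 143), and *Ccn1* (45.7 to 64.0 against 69.8 to 94.2), a matrix protein and target of YAP and TAZ, passed with all libraries at fold changes of −0.79, −0.91 and −0.73. Without si-Ctrl replicate 3 they did not (adjusted p = 0.0619, 0.0656 and 0.0661). Each also lost its call without other single libraries. These were the 4 si-P2 libraries and si-Ctrl replicate 4 for *S100a4*, si-P2 replicates 3 and 4 and si-Ctrl replicates 1 and 2 for *Anxa8*, and si-P2 replicates 1 to 3 and si-Ctrl replicates 2 and 4 for *Ccn1* (adjusted p up to 0.138, 0.137 and 0.154). Of the 54 genes named here that passed, 49 also passed without si-Ctrl replicate 3, and the other 5 were these 3, *Adm* and *Phlda3*. Other genes that fell in this range of size were *Mrap2* (−0.74), an accessory protein of melanocortin receptors, *Otulinl* (−0.87) and *Misp3* (−0.81). *Ccdc28a* (−0.81), *Rasgrp2* (−0.77) and AABR07044080.2 (−0.72) fell too, at −0.76, −0.59 and −0.55 without si-Ctrl replicate 3. They lost the call without si-P2 replicate 2 or 3, *Ccdc28a* and AABR07044080.2 also without si-P2 replicate 1, and *Ccdc28a* and *Rasgrp2* also without si-Ctrl replicate 4 (adjusted p up to 0.0786, 0.0875 and 0.0671). Other rises were those of *Prss53* (1914 to 2169 against 855 to 1439, 0.94), a serine protease, and of *Fyb1* (0.82), *Svep1* (0.80), *Zbtb7c* (0.76), *Tom1l2* (0.69) and *Vegp2* (1.04). Without si-Ctrl replicate 3 these were, in the same order, 1.07, 0.68, 0.78, 0.82, 0.47 and 1.26. Of these 6, *Prss53* alone passed without any 1 library, and the other 5 missed the threshold without si-P2 replicate 3, with adjusted p of 0.0515 for *Fyb1*, 0.0929 for *Svep1*, 0.0819 for *Zbtb7c*, 0.139 for *Tom1l2* and 0.0998 for *Vegp2*. *Zbtb7c*, *Tom1l2* and *Vegp2* also did without si-Ctrl replicate 4, *Tom1l2* and *Vegp2* without si-P2 replicate 1 or 2, and *Vegp2* without si-P2 replicate 4 or si-Ctrl replicate 2, each at an adjusted p no higher than these.

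The si-P2 level was then set against the groups other than si-Ctrl. The 4 si-P2 values lay outside both the si-Ctrl and the untransfected values for 221 of the 328 genes (94 above, 127 below), and over all genes tested for 3.9%. They lay outside all 16 other libraries for 91 of the 328 (29 above, 62 below), and over all genes tested for 1.46%. Of the named genes, 6 were above all others (*Uhmk1*, *Ppm1f*, *Prss53*, *Fyb1*, *Atp6v1a* and *Srebf2*). Another 13 were below all others. These were *Hscb*, *Glud1*, *Tmem63b*, *Tmem206*, *Cyth2*, *Cdh2*, *Ccnd3*, *Ppp1r14b*, *Golm1*, *Smn1*, *Misp3*, AABR07027870.1, a protein-coding gene with no other name in the files, and the pseudogene AABR07044080.2. Against untransfected cells, a comparison that shares the si-P2 libraries, 166 genes passed (1.05%).

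A second pattern was a si-P2 level near that of untransfected cells with si-Ctrl apart. *Nefm*, a neurofilament subunit, was at 338, 409.9, 375 and 496 in si-P2, 387, 520.5, 462 and 482 in untransfected cells and 789.9, 801, 840.0 and 916 in si-Ctrl. *Car8*, a catalytically inactive relative of the carbonic anhydrases, was at 273, 367, 268 and 375 in si-P2, 238, 452, 287 and 516 in untransfected cells and 609, 712, 568 and 743 in si-Ctrl. In both genes si-P2 and untransfected values overlapped and si-Ctrl lay above both. The differences from untransfected cells were −0.20 (95% confidence interval −0.62 to 0.22) for *Nefm* and −0.16 (−0.61 to 0.29) for *Car8*, and each interval included 0. *Car8* missed the threshold against si-Ctrl without si-P2 replicate 1 or 3 (adjusted p up to 0.0701). For *Muc13*, *Ldhb*, *Rnd1* and *Ccne2* the si-P2 and untransfected values also overlapped, with si-Ctrl outside both. *Rasa2*, *Polr3g*, *Gabarapl1* and *Ccdc28a* showed this too. Their differences from untransfected cells were 0.16, 0.39, −0.11 and −0.21, and only the interval of *Polr3g* (0.14 to 0.64) excluded 0. For *Ldhb* the sign of the difference depended on which control was used. Of the 328 genes, 27 were within 0.1 of untransfected cells on the log2 scale, a count not made over all genes tested. Against untransfected cells, with the same si-P2 libraries, 320 of the 328 kept their direction and 8 did not. The 328 were chosen on these si-P2 values, which favours the same direction. No share over all genes tested was counted, so no conclusion is drawn from the 320. Of the 320, 90 passed against untransfected cells, beside 166 (1.05%) of all genes tested.

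**Figure D3:**
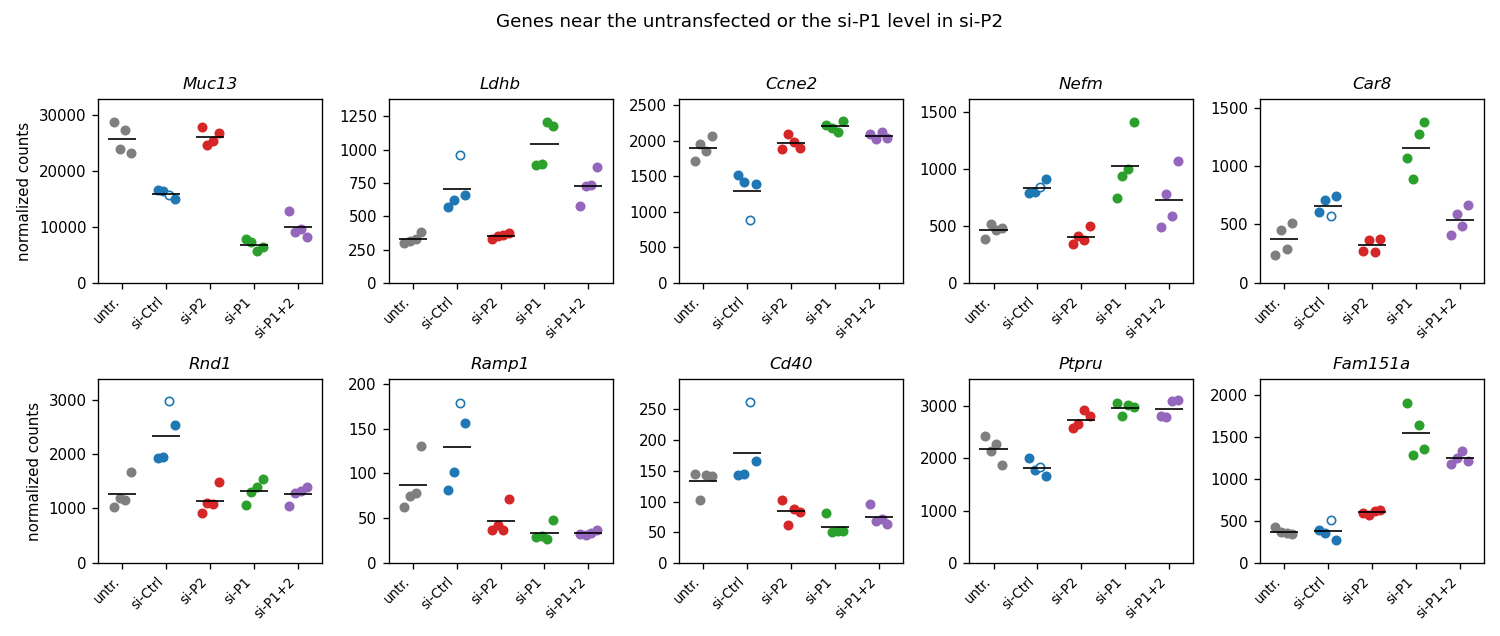
Normalized counts of 10 genes in each of the 20 libraries, by group (untr., untransfected), with 1 panel per gene, a linear axis from 0, and a black line at the group mean; the open circle is si-Ctrl replicate 3. In *Muc13*, *Ldhb*, *Ccne2*, *Nefm*, *Car8* and *Rnd1* the si-P2 values (red) overlap the untransfected values, and in *Ramp1*, *Cd40*, *Ptpru* and *Fam151a* the si-P1 values (green) lie on the same side of si-Ctrl as the si-P2 values.

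For some genes the mean level in si-P1 was displaced from si-Ctrl to the same side as in si-P2. *Ramp1* was at 26.7 to 48.4 in si-P1 and 36.4 to 71.5 in si-P2, and the direct difference between both groups, si-P2 minus si-P1, was 0.45 (95% confidence interval −0.13 to 1.02, adjusted p = 0.306, limma). For *Mrap2* it was 0.04 (−0.22 to 0.29), for *Ptpru* −0.12 (−0.27 to 0.04), for *Bid* −0.11 (−0.28 to 0.06) and for *Cd40* 0.52 (0.07 to 0.96), none with an adjusted p below 0.05. These intervals show how large a difference between the pools could have been missed, and they are widest for the low genes *Ramp1* and *Cd40*. *Fam151a* was at 270.3 to 510.1 in si-Ctrl, 566 to 626 in si-P2 and 1285 to 1911 in si-P1, so that si-P2 lay between (−1.35, adjusted p = 6.14e-06). It missed the threshold against si-Ctrl without si-P2 replicate 3 (adjusted p = 0.0603), and without si-Ctrl replicate 3 its fold change was 0.85. Other genes moved apart. *Muc13* was at 5749 to 7837 in si-P1 against 24683 to 27830.5 in si-P2 (1.95, adjusted p = 9.63e-09), and *Ldhb*, *Car8* and *Nefm* were higher in si-P1 than in si-P2 in every library, with differences of −1.54, −1.84 and −1.31. Over all genes, 2325 (14.7%) differed between si-P2 and si-P1. The si-P1 and si-P2 comparisons with si-Ctrl share the si-Ctrl libraries, so the levels are given side by side and were not tested for likeness.

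The *Piezo2* siRNA was also given on top of the *Piezo1* siRNA, and si-P1+2 against si-P1 shares no library with si-P2 against si-Ctrl. In that comparison 7 genes passed (0.0443%), all lower. With the replicate number as a block in the fit of all 20 libraries, 93 passed (26 higher, 67 lower). The block is given since same-numbered libraries of si-P1+2 and si-P1 deviated from their group means together (correlations of 0.120 to 0.202). Of the 328 genes, 252 (76.8%) had the same sign in both comparisons, beside 53.9% of all genes tested. For the 189 lower genes this was 158 (83.6%) and for the 139 higher genes 94 (67.6%), and for the 281 genes that passed with and without si-Ctrl replicate 3 it was 221 (78.6%). At an unadjusted p below 0.05 (limma), 83 of the 328 moved in the same direction and 4 in the opposite one. Over all 15802 genes tested these counts were 598 and 334.

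Of the 54 named genes that passed, 42 had the same sign (28 of 33 that fell, 14 of 21 that rose). None passed at an adjusted p below 0.05 (limma), and 11 passed with the block, beside 93 of all genes tested. At an unadjusted p below 0.05, 22 moved in the same direction, beside 598 of all 15802. *Hscb* was at 634, 710.2, 596 and 757 in si-P1+2 and 813, 971, 906 and 1164 in si-P1, a difference of −0.51. Its standard error was 0.13 without the block (adjusted p = 0.239, limma) and 0.096 with it (adjusted p = 0.0237). All 4 si-P1+2 values were below all 4 si-P1 values, and above all 4 si-P2 values. *Tmem63b* was at 4453, 4470.2, 4596 and 4628 against 5250.4, 5299, 5466 and 5606 (−0.25, 0.0118 with the block) and *Cyth2* at 3933, 3795, 3896 and 3833 against 4689.7, 5026, 4887 and 4924 (−0.34, 0.0378 with the block). *Car8* was at 409, 590.4, 484 and 667 against 1068, 892, 1272 and 1373, a difference of −1.10 beside −1.04 in si-P2 against si-Ctrl. *Prss53* (0.64) and *Muc13* (0.54) were higher, and *Ldhb* (−0.52), *Golm1* (−0.53), *Adm* (−0.46), *Cd276* (−0.36) and AABR07027870.1 (−0.35) lower, each passing with the block.

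For *Glud1* the effects in both settings differed. It was at 15331, 16818, 15105 and 16319 in si-P1+2 and 15172, 17640.5, 16597 and 16517 in si-P1, groups that overlap. The difference was −0.05 (standard error 0.05) beside −0.57 in si-P2 against si-Ctrl. All si-P1 values already lay below the si-Ctrl values (18727 to 20101), so both settings started from different levels. The dose of each pool in si-P1+2 is not stated. The difference between both effects was 0.52 (standard error 0.07, adjusted p = 0.0190, limma), and *Glud1* was the 1 gene of 15802 (0.00633%) for which this interaction passed. With the replicate number as a block across all 20 libraries 174 genes passed, *Glud1* among them (adjusted p = 0.00174, limma). That block also spans si-P2 and si-Ctrl, whose numbers were not taken as pairs. Without si-Ctrl replicate 3 the difference between both effects was 0.53 for *Glud1* (adjusted p = 0.00684) and 11 genes passed. *Ramp1*, *Ptpru*, *Bid* and *Mrap2*, compared between si-P1 and si-P2 above, had log2 differences of 0.04, −0.01, −0.07 and 0.04 in si-P1+2 against si-P1, and their interactions did not pass (adjusted p = 0.246, 0.113, 0.255 and 0.161). *Cd40* was at 0.36 there, opposite in sign to its −1.06 in si-P2 against si-Ctrl, with a difference between both effects of 1.41 that did not pass (adjusted p = 0.161).

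**Figure D4:**
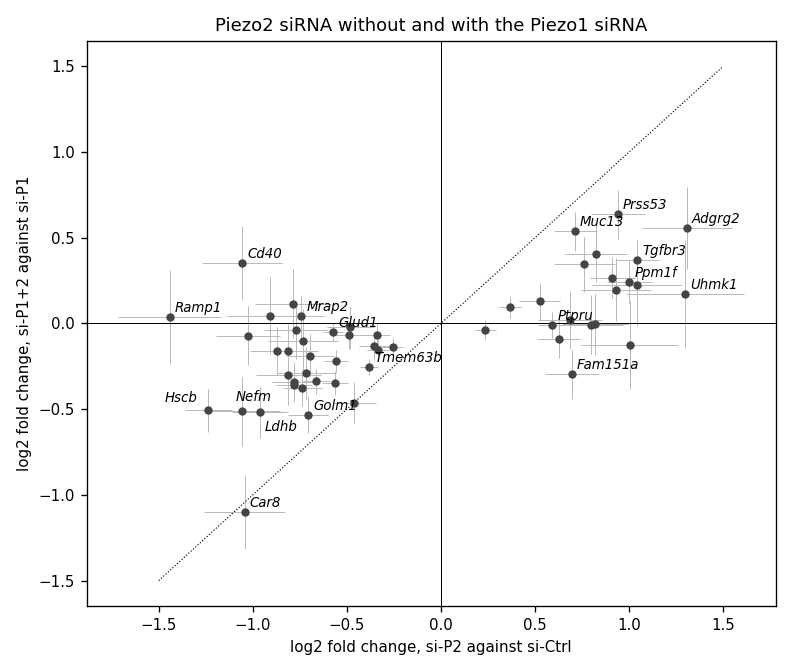
Each point is 1 of the 54 named genes that passed in si-P2 against si-Ctrl, with its log2 fold change there against that in si-P1+2 against si-P1, which uses other libraries; lines are 1 standard error and the dotted line marks equal values. Of the 33 genes that fell, 28 lie below the horizontal axis, and most points lie closer to that axis than the dotted line does.

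The remaining lists of pathways held few or no called genes. Of the 811 distinct genes tested in 32 lists, 24 passed, beside 2.08% of all genes. No gene passed among 21 genes of β-cell identity, 18 of granule content and prohormone processing, 42 of the response to interferon and double-stranded RNA, 18 of the RNA interference machinery, 27 of the unfolded protein response, 27 of the integrated stress response, 47 of nuclear transport, 27 immediate early genes and 28 receptors that tune secretion. In the 14 lists with no call, 78 of 358 distinct genes reached an unadjusted p below 0.05 in limma, beside 3226 of all 15802. For these 358 genes edgeR called 0 and DESeq2 17, beside 327 and 820 of all 15802. The insulin genes *Ins1* and *Ins2*, near-identical copies whose reads may be split between them, stood at 0.15 and 0.36 with adjusted p of 0.740 and 0.202. Without si-Ctrl replicate 3 *Ins2* was at 0.56 and passed (adjusted p = 0.0105), and the transcription factor *Rfx6*, at −0.21, did too (adjusted p = 0.0208). In the same fit *Xpot*, which exports transfer RNA from the nucleus, passed at −0.42 (adjusted p = 0.0232), and *Crhr1*, a receptor of corticotropin-releasing hormone, at −0.28 (adjusted p = 0.0480). The glucose transporter *Slc2a2* was at 0.38 (adjusted p = 0.0924).

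Some list medians lay away from 0 with few or no members passing. The 27 genes of the integrated stress response, the programme by which cells adjust translation and amino acid supply, had a median of −0.30 with 24 of 27 below 0, and −0.25 without si-Ctrl replicate 3, beside 0.012 and 0.0011 over all genes tested. Among them the transcription factor *Atf4* was at −0.38 (adjusted p = 0.198), the serine synthesis enzyme *Psat1* at −0.64 (adjusted p = 0.0699, and 0.0687 without si-Ctrl replicate 3) and the pseudokinase *Trib3* at −0.49 (adjusted p = 0.310). In si-P1+2 against si-P1 the median of that list was 0.08. Several medians moved towards 0 without si-Ctrl replicate 3. Among them were those of the 32 cytosolic ribosome genes (−0.19 with it and −0.03 without it) and of PI3-kinase and insulin signalling (0.18 and 0.03). Medians of excitability channels, RNA interference machinery, intermediate filaments, annexins and S100, exocytosis, and extracellular matrix and adhesion did so too. The TGF-β pathway list had medians of 0.22 and 0.18, and β-cell identity 0.17 and 0.17. The 13 tested genes of peptides and hormones had medians of 0.23 and, without si-Ctrl replicate 3, 0.52, with 8 of 13 above 0. Among them the appetite peptide *Cartpt* was at 1.35 and gastrin (*Gast*) at 0.89, with adjusted p of 0.247 and 0.175 (0.148 and 0.0560 without si-Ctrl replicate 3).

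**Figure D5:**
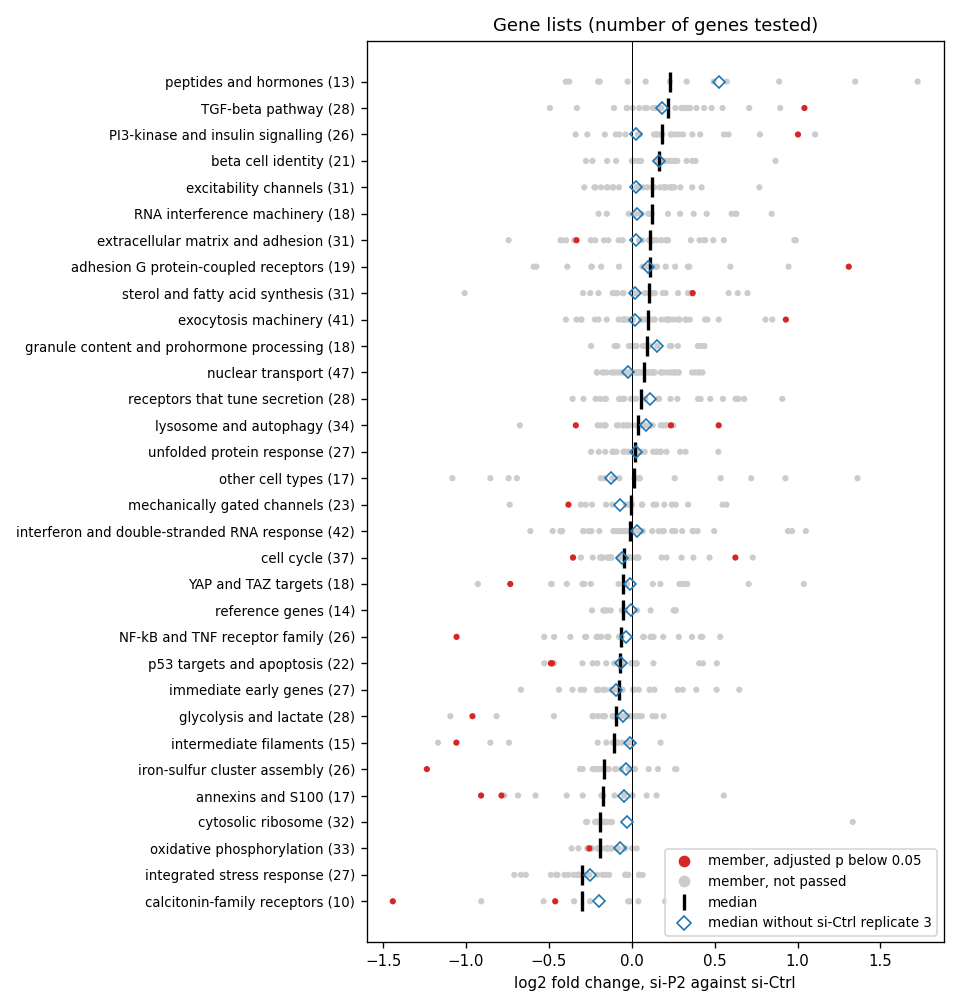
Rows are the 32 gene lists, with the number of genes tested in brackets, and the axis is the log2 fold change of each member, si-P2 against si-Ctrl; red points passed at an adjusted p below 0.05, black bars are medians and open diamonds the medians without si-Ctrl replicate 3. The integrated stress response lies at −0.30 with no red point, and the ribosome and oxidative phosphorylation medians move towards 0 without that library.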

How the data were processed

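Stranded mRNA libraries of INS-1 832/13 cells were prepared with a TruSeq kit and read on an Illumina NextSeq instrument. The submitters' processing notes name FastQC (0.11.8), MultiQC (1.7), Salmon (0.14.0), DESeq2 (1.25.10) and the rat build Rnor_6.0. The deposited signal values are normalized counts, which the authors made by dividing the count of each gene by a DESeq2 size factor per library. In every column the values were whole multiples of 1 step, within 0.001 for 100% of them, so reads could be recovered. All columns matched a sample, and 0 columns were left without one. Antisense partners, near-identical copies and the 77 symbols that stand on more than 1 Ensembl number (kept apart) were not resolved further, and 14 names that had become dates were used by Ensembl number.

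Genes above 0 in at least 10 of 20 libraries (50%, the filter of the study's methods) were compared as log2(value + 1) with limma (3.58.1) in R (4.3.3), with the 20 libraries in one fit of 5 group means, 15 residual degrees of freedom and a variance trend. Tests were two-sided, p-values were adjusted by Benjamini-Hochberg over all genes tested, and a gene passed below 0.05. Intervals are 95% confidence intervals. Other settings were a pseudocount of 0.5, no filter, a mean of at least 10, edgeR (4.0.16) and DESeq2 (1.42.0) on the recovered reads, equal totals, quantile normalization, no variance trend, only both groups compared, the replicate number as a block, each library left out and untransfected cells as controls. The limma fit was tested on simulated data with known changes. The simulation held no deviating library such as si-Ctrl replicate 3, so it cannot speak to the influence of that library.

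Among genes that passed, those named were the 15 largest rises and 15 largest falls with a mean of at least 100 and no overlap of both groups, the 10 smallest adjusted p, the 10 largest each way outside both the si-Ctrl and the untransfected range, and the members of 32 lists (up to 4 per list). Of the genes so chosen, 1 is not reported here. List members that did not pass are named for their role. Lists came from general knowledge (924 entries, 897 matched in the table). Members, lists and this rule were chosen with earlier results of these data known. Replicate numbers were taken to pair si-P1+2 with si-P1, where all 4 correlations of deviations exceeded 0.1, and not si-P2 with si-Ctrl. Between si-P2 and si-Ctrl, replicate 3 fell short (−0.036), and it holds the si-Ctrl library that stood apart. Replicates 1, 2 and 4 gave 0.149, 0.121 and 0.144. The pairing was thus read from the data and is not stated in the design. The block itself was fitted over all 20 libraries, so its replicate effects also drew on the other groups. Promoters came from RefSeq (GRCr8), matched by symbol for 74.8% of the higher and 77.8% of the lower genes, too few for a check over all of them, and gene spans for 92.8% and 94.2%. The sequences of the siRNA oligonucleotides were not used here.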

Additional observations from a re-analysis of the deposited data

Results flagged for a closer look

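In 7 of 112 groups of 4 libraries (56 named genes in si-P2 and in si-Ctrl) 1 library lay far from the other 3 by Dixon's test, and chance flags about 1 in 20 groups. In si-P2 these were *Adgrg2* in replicate 3 (151 normalized counts, the others 96.6 to 98.9), *Svep1* in replicate 3 (649, the others 428 to 457), *Tmem63b* in replicate 2 (4127, the others 3907 to 3945) and *Ramp1* in replicate 4 (71.5, the others 36.4 to 42.0). *Adgrg2* passed in each fit without 1 library, and *Svep1* did not pass without si-P2 replicate 3 (adjusted p = 0.0929, limma). In si-Ctrl these were *Ppp1r14b* in replicate 3 (11215, the others 6234 to 6557), AABR07044080.2 in replicate 3 (280.4, the others 173 to 184) and *Ccn1* in replicate 1 (69.8, the others 93.9 to 94.2). Both genes with a high si-Ctrl replicate 3 passed without that library as well, at log2 fold changes of −0.50 for *Ppp1r14b* and −0.55 for AABR07044080.2.

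The effect of the *Piezo2* siRNA on *Glud1* differed between cells without and with the *Piezo1* siRNA by 0.52 on the log2 scale (adjusted p = 0.0190 for the interaction, limma). All 4 si-P2 libraries were below all 4 si-Ctrl libraries, while the si-P1+2 and si-P1 values overlapped. The si-P1 values also lay below all 4 si-Ctrl values.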

How the results depend on the processing

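The count of 328 genes changed in si-P2 against si-Ctrl was 820 with DESeq2, 5 with only both groups in the fit, 170 with both groups only and no si-Ctrl replicate 3 (chosen after seeing the data), 166 with untransfected libraries as controls and 1367 with the replicate block, and 100 to 765 when 1 library was left out. Same-numbered si-P2 and si-Ctrl libraries correlated at −0.036 to 0.149, and 3 of 4 correlated best with their own number, a hint from the data and not the design. The 7 genes of si-P1+2 against si-P1 were 62 with DESeq2, 11 with equal totals, 18 with quantile normalization, 3 with no variance trend, 2 with only both groups and 93 with the replicate block (1 to 7 with 1 library left out). The 2325 genes of si-P2 against si-P1 were 3724 with the block (1556 to 2077 with 1 library left out). *Piezo2* ranged from −1.05 to −0.53 with 1 library left out and passed in none of these, and DESeq2 gave it no adjusted p. Against untransfected cells *Ldhb* reversed to 0.093. Of the 56 named genes, the side of the threshold changed for 49 with only both groups, for 14 when si-Ctrl replicate 3 was left out of that fit as well, for 34 besides *Ldhb* with untransfected controls, and for at most 7 with each other tool, scaling, filter or pseudocount. The cause of these shifts was not tested. *Hscb* and *Glud1* passed under all of them. The block changed the call of none of the named genes in si-P2. Depth limits *Piezo2*, with 4 to 15 reads per library.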

Other observations

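The median RefSeq gene span (GRCr8) was 32099 bases for the 139 genes higher in si-P2 and 23145 for the 189 lower ones, beside 25190 over all genes tested. Spans were found for 92.8%, 94.2% and 84.4% of these genes. The median of the mean normalized count, not scaled for gene length, was 1115 for the higher and 1458 for the lower genes, against 523 for all genes tested. No test was made on these values.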
